A study of Mus musculus with 8 samples.

Results

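Of the TALE class of homeobox genes, 9 members of the Meis, Pknox, Pbx and Tgif families were followed in the medial ganglionic eminence (MGE) of mouse embryos: Meis1, Meis2, Meis3, Pknox1, Pknox2, Pbx2, Pbx3, Tgif1 and Tgif2. They were taken by name, as every probe other than the array's controls whose transcript accession maps to 1 of these symbols. No measured value entered this rule, but the list of members was drawn up with earlier results of these data known. The study cites earlier work for a strong rise of Meis2 RNA in this mutant. The rule found 13 of the 41174 probes on the array, for 9 of the 17178 genes that could be named. Meis1, Meis2, Pbx2 and Pknox2 had 2 probes each and the other 5 genes had 1. RNA levels were read on 8 1-colour Agilent arrays, 4 of wild-type (WT) and 4 of conditional Nkx2-1 mutant (Nkx2-1cKO) MGE, microdissected at embryonic day 13.5. The MGE is the ventral part of the embryonic telencephalon that forms cortical and striatal interneurons and depends on the transcription factor NKX2-1. By the labels, WT samples were Nkx2-1flox/+;Olig2tva-cre- and mutant samples Nkx2-1flox/+;Olig2tva-cre+, all C57BL/6. All samples thus carried a floxed Nkx2-1 allele and differed in the Cre, which is driven from Olig2 and acts only where Olig2 has been active. The labels name a single floxed allele in the mutants, while the study's methods cite a line with both alleles floxed, and the sources used do not resolve this difference. On the arrays the Nkx2-1 probe read 1.24% of its WT level in the mutants. No source used here says whether a sample was 1 embryo or a pool, so p-values measure only the spread between these samples, which may be technical.

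TALE proteins are transcription factors with an extra loop in the homeodomain. MEIS and PKNOX proteins bind a TGACAG core and form complexes with PBX proteins, which also join HOX and other homeodomain proteins on DNA. TGIF proteins bind a similar core, recruit corepressors and dampen TGF-beta and retinoic acid signalling. In the ganglionic eminences Meis2 is best known from the lateral ganglionic eminence (LGE), the neighbouring source of striatal projection neurons.

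Promoter sequence was at hand for 6 of the 9 genes (not for Pbx3, Pknox1 and Pknox2), as 10 windows running from 250 bases before to 50 bases after a RefSeq transcription start in GRCm38.p6, of which Tgif1 had 5. They were searched on both strands for TGACAG (the MEIS and TGIF core), TGATTGAT (a PBX sequence) and TNAAGTG (the NKX2-1 core, where N is any base). No motif overlaps another in these windows. Of all 32841 RefSeq promoter windows of this length, 19.2% hold TGACAG, 0.746% hold TGATTGAT and 11.5% hold TNAAGTG. The windows of Meis2, the member whose RNA differed between the groups, and of Meis1, its closest relative here, are printed 5′ to 3′ on the gene's strand, with a motif match in capitals. Meis2 lies at chr2:116064570-116064869 and Meis1 at chr11:19018920-19019219, both on the minus strand.
Meis2: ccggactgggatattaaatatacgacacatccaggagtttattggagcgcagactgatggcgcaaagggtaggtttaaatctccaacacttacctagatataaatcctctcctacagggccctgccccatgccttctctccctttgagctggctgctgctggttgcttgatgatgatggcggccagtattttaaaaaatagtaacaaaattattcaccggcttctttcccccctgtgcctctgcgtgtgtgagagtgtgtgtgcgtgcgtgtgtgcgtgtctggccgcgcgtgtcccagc
Meis1: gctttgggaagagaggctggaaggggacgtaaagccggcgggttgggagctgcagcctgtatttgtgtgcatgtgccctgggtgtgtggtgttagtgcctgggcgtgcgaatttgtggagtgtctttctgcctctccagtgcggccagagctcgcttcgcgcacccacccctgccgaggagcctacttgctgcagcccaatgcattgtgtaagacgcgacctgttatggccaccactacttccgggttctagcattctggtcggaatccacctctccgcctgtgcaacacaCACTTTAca
The Meis2 window holds none of the 3 motifs. The Meis1 window holds 1 TNAAGTG match, on the strand opposite to the gene and 41 bases downstream of the start, so that it reads as its reverse complement above. Of the 5 Tgif1 windows, 2 hold a TGACAG, at 5 and at 38 bases downstream of their starts. The windows of Meis3, Pbx2 and Tgif2 hold none. A match is a description of the letters and was not tied to binding.

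Signals are given as log2 of the scanner software's processed signal minus that array's 75th percentile, so that 0 is the level of a probe at the upper quartile of its array. Levels of different probes cannot be set against each other on such arrays. Probes flagged as well above background on 4 or more of the 8 arrays were tested with limma, and adjusted p-values are Benjamini-Hochberg values over all 31288 tested probes, called below 0.05. All 13 TALE probes were tested, and 12 of them were well above background on every array. Nkx2-1 RNA itself read between 1.82 and 1.95 on the WT arrays and between -4.66 and -4.26 on the Nkx2-1cKO arrays, a log2 difference of -6.34 ± 0.11 (SE). Where the probe lies relative to the floxed exons was not analysed here. Of 5 MGE markers, 4 were called lower in the mutant, and of 8 LGE markers, 5 were called higher (Ebf1, Isl1, Zfp503, Rarb and Tac1). Lists for general subpallium, caudal eminence, pallium, erythroid cells, endothelium, mesenchyme, microglia and dividing progenitors had no called gene, though WT array 4 stood apart on mesenchyme markers (Dcn 0.56 against -3.78 to -1.78 and Col3a1 1.26 against -1.61 to -1.18 on the other WT arrays), and of 4 tested diencephalic markers 1 was called higher and 1 lower. In whole tissue, fewer cells of a type and less RNA per cell cannot be told apart.

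Meis2 was the only TALE gene called. Its brighter probe (A_51_P422429) read 4.10, 5.01, 5.05 and 4.86 on WT arrays 1 to 4 and 5.78, 5.56, 5.84 and 5.78 on Nkx2-1cKO arrays 1 to 4. Every mutant array lay above every WT array, and WT array 1 lay apart below the other WT arrays. The log2 fold change was 0.98 ± 0.19 (SE, n = 4 per group, limma adjusted p = 0.0462), or 1.98-fold. The second probe (A_52_P277641) read 4.66, 4.65, 4.74 and 4.43 in WT and 5.35, 5.26, 5.23 and 5.32 in the mutant, again without overlap and here with WT array 1 among the others. Its log2 fold change was 0.67 ± 0.081 (limma adjusted p = 0.00362), or 1.59-fold. These were 2 of 13 TALE probes called higher, where 0.422% of all tested probes were called higher, and 0 of 13 called lower, where 0.614% of all were (1.04% in either direction).

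The probes of Meis2 differed in how far they moved, and WT array 1 stood apart in this. The brighter minus the second probe was -0.55 on WT array 1 and between 0.30 and 0.61 on the other 7 arrays. Without WT array 1 the brighter probe's log2 fold change was 0.77 ± 0.091 (limma adjusted p = 0.00657) and the second probe's 0.68 ± 0.090 (0.0109). With tested probes split into 5 equal bins by brightness, the dimmest bin lay on the same array by a median of 1.18 above the median of the other arrays. The brightest bin, which holds both Meis2 probes, differed by -0.041, and the 355 probes within 0.5 log2 units of the brighter Meis2 probe by -0.032. In the median, probes of like brightness thus did not read low on WT array 1. On WT arrays 2 to 4 these probes differed by 0.028, -0.12 and -0.050, and on mutant arrays 1 to 4 by 0.17, -0.15, 0.20 and 0.029. The part of such shifts in the change of Meis2 was not tested. Without WT array 4, where mesenchyme markers were high, the brighter probe gave 1.02 ± 0.22 (limma adjusted p = 0.110) and the second 0.60 ± 0.073 (0.0093). Arrays lay on 2 slides, with 2 arrays of each group on each, and within slide 1 and slide 2 the brighter probe changed by 1.09 and 0.88 and the second by 0.59 and 0.75.

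**Figure D1:**
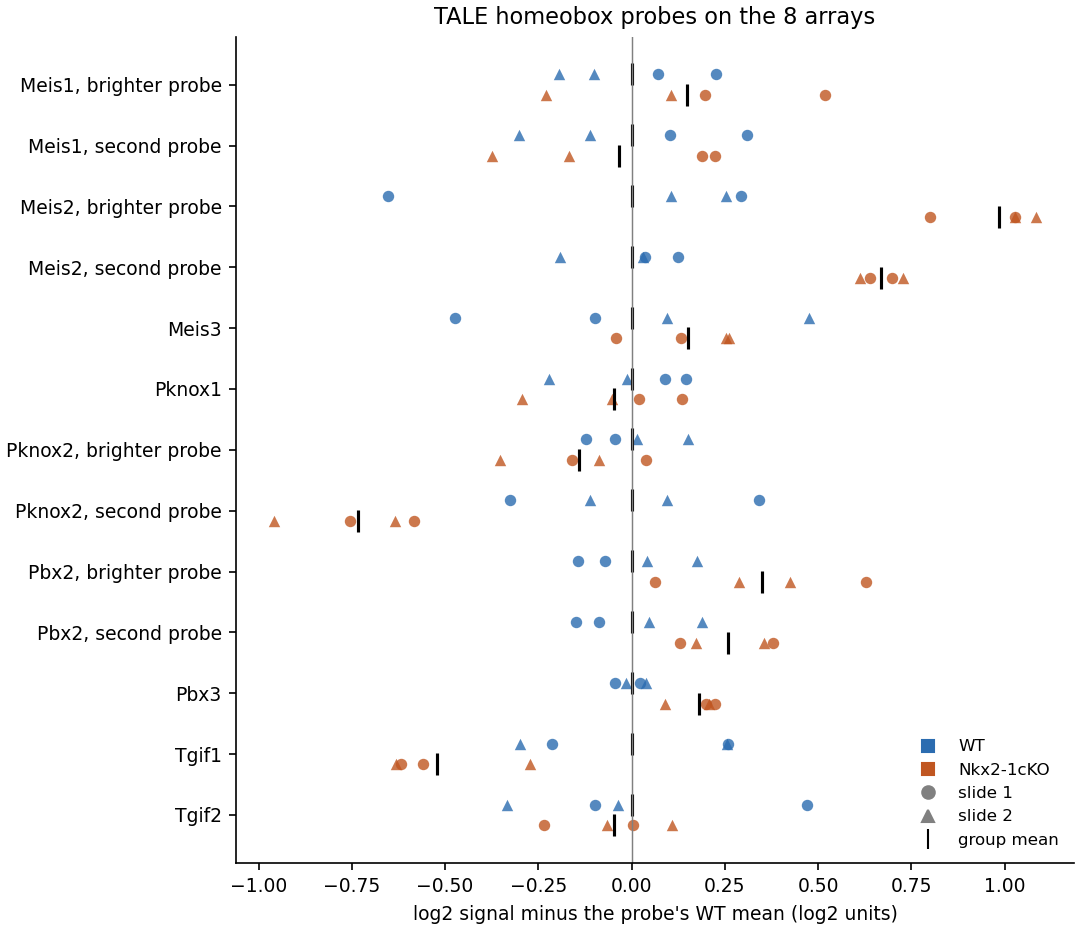
Signal of each of the 13 TALE probes on each array, as log2 signal minus the probe's WT mean (horizontal axis), with WT arrays in blue, Nkx2-1cKO arrays in orange, circles for slide 1, triangles for slide 2 and black bars for group means. The 4 mutant arrays lie right of all WT arrays on both Meis2 probes and on Pbx3, and left of them on the second Pknox2 probe.

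The remaining MEIS genes did not pass the test. Meis1, a MEIS protein best known from limb and blood development, read 0.27, -0.15, 0.11 and -0.059 in WT and -0.19, 0.24, 0.15 and 0.56 in the mutant on its brighter probe. The groups overlapped, and in both groups the slide 1 arrays (WT 1 and 3, Nkx2-1cKO 2 and 4) lay above the slide 2 arrays. The log2 fold change was 0.15 ± 0.16 (SE), with a 95% interval from -0.21 to 0.50, and it was 0.025 without mutant array 4 and 0.27 without mutant array 1. The second Meis1 probe gave -0.033 ± 0.18, with an interval from -0.44 to 0.37. Meis3 spread widely in WT, at 0.69, 1.26, 1.06 and 1.64, around the mutant values of 1.42, 1.29, 1.41 and 1.12. The Meis3 log2 fold change of 0.15 ± 0.18 (interval -0.25 to 0.55) became -0.0071 without WT array 1, and it was 0.33 within slide 1 and -0.029 within slide 2. A log2 change as large as that of the brighter Meis2 probe, 0.98, lies outside the intervals of all 3 probes.

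PKNOX proteins bind the same core as MEIS and pair with PBX. Pknox1 read 0.28, 0.18, 0.34 and -0.031 in WT and -0.10, 0.21, 0.14 and 0.33 in the mutant, which overlap. Its log2 fold change was -0.048 ± 0.12 (SE, interval -0.31 to 0.22). The brighter Pknox2 probe read -1.02, -0.88, -0.94 and -0.74 in WT and -1.25, -1.05, -0.98 and -0.86 in the mutant, with a log2 fold change of -0.14 ± 0.11 (interval -0.39 to 0.10). It was 0.022 within slide 1 and -0.30 within slide 2, and -0.070 without mutant array 1. The second Pknox2 probe read -5.52, -5.98, -6.19 and -5.77 in WT and -6.82, -6.62, -6.50 and -6.45 in the mutant. Here every mutant array lay below every WT array. The probe gave a log2 fold change of -0.73 ± 0.28 (limma adjusted p = 0.50), but the probe was well above background on only 3 WT arrays and 1 mutant array. It belongs to the dimmest bin of tested probes, where WT array 1 read high, and with normexp background correction its log2 fold change turned to 0.62. Without WT array 1 it was -0.62 ± 0.23. Both Pknox2 probes had a lower mean in the mutant and neither passed the threshold, nor did the mean of both, at -0.44 ± 0.14 (limma adjusted p = 0.341).

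PBX proteins are the common partners of MEIS and PKNOX. Both Pbx2 probes had a higher mean in the mutant and neither passed the test. The brighter read 2.0, 2.11, 1.93 and 2.24 in WT and 2.36, 2.13, 2.49 and 2.70 in the mutant, with mutant array 2 inside the WT range. Its log2 fold change was 0.35 ± 0.13 (SE, interval 0.068 to 0.63, limma adjusted p = 0.441). The second Pbx2 probe overlapped too and gave 0.26 ± 0.11 (interval 0.013 to 0.50, limma adjusted p = 0.554). Pbx3, which is widely expressed in developing forebrain, read 4.30, 4.33, 4.37 and 4.38 in WT and 4.44, 4.55, 4.55 and 4.57 in the mutant. The groups did not overlap, and the WT values kept within an SD of 0.037. The log2 fold change was small, at 0.18 ± 0.064 (1.13-fold, interval 0.036 to 0.32, limma adjusted p = 0.439), and it was 0.22 within slide 1 and 0.14 within slide 2. It was 0.11 ± 0.079 with quantile normalization, 0.087 ± 0.16 with normexp and 0.30 ± 0.13 with median centring.

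TGIF proteins are repressors that compete for the MEIS core. Tgif1 read -3.71, -4.26, -4.18 and -3.71 in WT and -4.24, -4.53, -4.60 and -4.58 in the mutant, so that only mutant array 1 fell inside the WT range. Its log2 fold change was -0.52 ± 0.19 (SE, interval -0.94 to -0.10, limma adjusted p = 0.439). The probe is dim, in bin 2 of 5 by brightness counted from the dimmest, where WT array 1 lay 0.38 above the other arrays in the median, and with normexp correction it gave 0.21 ± 0.57. Without WT array 1 the value was -0.43 ± 0.18. Tgif2 read 3.86, 3.36, 3.30 and 3.06 in WT and 3.50, 3.16, 3.33 and 3.40 in the mutant. Tgif2 gave a log2 fold change of -0.047 ± 0.16 (interval -0.40 to 0.30), being -0.30 within slide 1 and 0.21 within slide 2.

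Over the family, 7 of 13 probes had a higher mean in the mutant and 6 a lower one. The median log2 fold change of the TALE probes was 0.15, beside -0.040 over all tested probes. The groups did not overlap on 4 of the 13 probes, 3 with the mutant above WT (where 2.29% of all tested probes were) and 1 with it below (4.11% of all), beside 6.4% of all probes in either direction. Leaving Meis2 aside, 5 of 11 probes had an unadjusted limma p below 0.05, both of Pbx2 and that of Pbx3 upwards and those of Tgif1 and the second of Pknox2 downwards. Over all tested probes 3.31% had such a p upwards and 5.3% downwards. After adjustment none of these 5 was called.

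**Figure D2:**
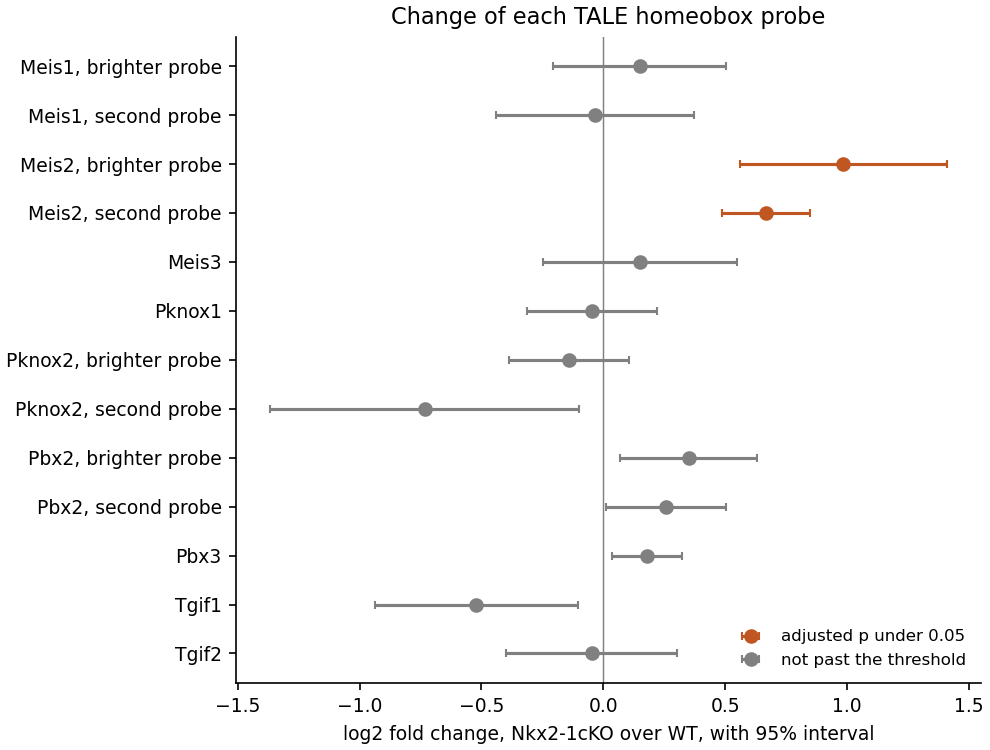
Log2 fold change (Nkx2-1cKO over WT, horizontal axis) of each TALE probe with its 95% limma interval, in orange where the adjusted p was below 0.05 and grey otherwise. Only the Meis2 probes, at 0.98 and 0.67, are past the threshold, and the intervals of both Pbx2 probes, Pbx3, Tgif1 and the second Pknox2 probe also leave out 0 before adjustment.

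Within an array, the difference between Meis2 and each other member (its brighter probe) does not depend on a constant factor for the whole array. It can depend on processing that acts differently on dim and bright probes. With quantile normalization and with normexp the brighter Meis2 probe gave 0.87, while the dim Tgif1 probe moved from -0.52 to -0.32 and to 0.21. The difference is given as a description with no test, since Meis2 was singled out on these same arrays and all 8 pairs share its values. With the brighter Meis2 probe the difference was larger in the mutant by 0.63 (against Pbx2) to 1.50 (against the dim Tgif1 probe) log2 units. The groups did not overlap for 7 of the 8 genes, with Pbx2 as the exception. With the second Meis2 probe it was larger by 0.32 (against Pbx2) to 1.19 (against Tgif1). Here the groups did not overlap for 5 genes, Pknox1, Pknox2, Pbx3, Tgif1 and Tgif2, and overlapped for Meis1 (0.52), Meis3 (0.52) and Pbx2. Both Meis2 probes separate the groups before any gene is subtracted, so these counts say little about the other TALE genes. The share of all tested genes that would leave the groups apart is not given here.

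**Figure D3:**
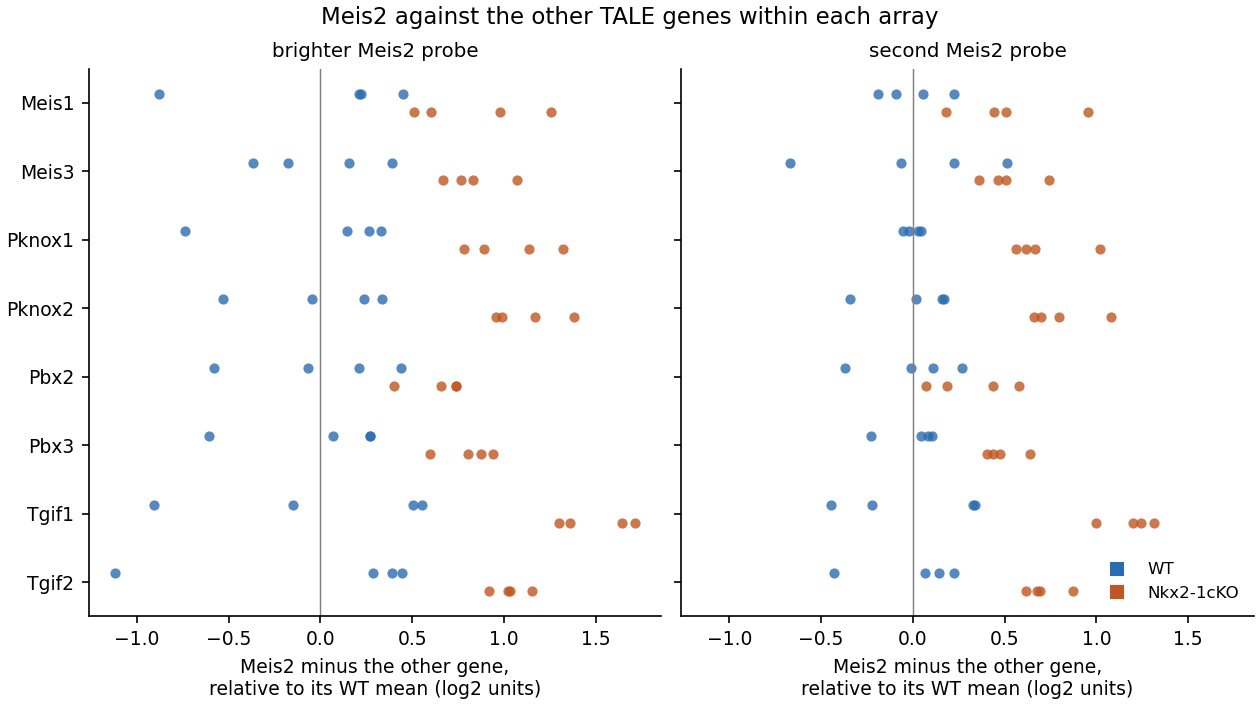
Meis2 minus each other TALE gene within each array, relative to the WT mean of that difference (horizontal axis, log2 units), for the brighter Meis2 probe on the left and the second on the right, with WT arrays in blue and Nkx2-1cKO arrays in orange. The groups are apart for 7 of 8 genes on the left and for 5 of 8 on the right, where both Meis2 probes separate them before any subtraction.

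The genes whose signal ran most like the brighter Meis2 probe over the 8 arrays are given as a description, since the group difference and WT array 1 both enter the ranking. Among 14425 other genes the highest Pearson correlations were those of Crabp1 (r = 0.980), Rxrg (0.980), Rph3a (0.979), Rarb (0.979) and Sema3f (0.975). Crabp1 binds retinoic acid in the cytoplasm, and Rxrg and Rarb are nuclear receptors for retinoids. Of these 5, Rarb was called (log2 fold change 1.51 ± 0.21, limma adjusted p = 0.00736). The lowest correlations were those of Ncoa2 (r = -0.996), Cd37 (-0.991), Rora (-0.983), Gpc5 (-0.976) and Plcd4 (-0.976), none of them called. Among the TALE genes Pbx3 ran closest to Meis2, with r = 0.85, and Tgif1 furthest from it, with r = -0.86, while Meis1 had r = 0.087. Genes at the top share with the brighter Meis2 probe a low reading on WT array 1, where Crabp1 read 0.34 against 1.08 to 1.41 on the other WT arrays, Rxrg 0.29 against 1.23 to 1.55 and Rarb -1.01 against -0.27 to 0.016. The ranking depends on the probe, for with the second Meis2 probe 0 of the 5 highest and 0 of the 5 lowest genes were the same.

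Lists of genes tied to the TALE factors were then counted, each gene by its brightest probe. Of 9 further TALE homeobox genes, among them the Irx family and Mkx, 6 were tested and 0 called, with a median log2 fold change of 0.17 beside -0.0018 over all tested genes. The highest was Irx1, a patterning factor of the neural tube, at 0.44 ± 0.23 (SE), though its other probe gave -0.71, and the lowest was Irx4 at -0.64 ± 0.32. On Irx4, WT array 1 read -2.73, against -4.23 to -3.96 on the other WT arrays and -4.79 to -4.17 on the mutant arrays. Irx3, Irx5 and Irx6 had no tested probe. Of 11 homeodomain and paired partners of MEIS and PBX, 10 were tested and 0 called (median 0.013). Gsx2, a progenitor factor of the LGE, was highest at 0.42 ± 0.15 and Dlx1, a general subpallial factor, was lowest at -0.39 ± 0.086. On Dlx1 every mutant array lay below every WT array (limma adjusted p = 0.0832), and with the slide as a block it was called lower (0.0231).

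Of 16 partners of the TGIF proteins, namely SMADs, receptors and corepressors, 15 were tested and 0 called, and 12 lay below 0 with a median of -0.097. Smad3, which carries TGF-beta signals to the nucleus, was highest at 0.14 ± 0.12. Sin3a, a scaffold of histone deacetylase complexes, was lowest at -0.58 ± 0.50, a value set by mutant array 3, which read -1.89 where the other mutant arrays read 0.39 to 0.77.

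Retinoic acid is known to act on Meis genes, and of 16 genes of its synthesis, breakdown and reception 15 were tested, with 2 called higher and 0 lower (median 0.14). Aldh1a3, an enzyme that makes retinoic acid, read -4.22, -4.17, -2.46 and -3.07 in WT and -0.39, -0.71, -1.58 and -0.86 in the mutant, a log2 fold change of 2.59 ± 0.40 (SE, limma adjusted p = 0.0148). The groups were far apart in spite of a wide WT spread. Rarb, a retinoic acid receptor, read between -1.01 and 0.016 in WT and between 1.07 and 1.37 in the mutant. The lowest was Cyp26a1, which degrades retinoic acid, at -1.13 ± 0.37 (limma adjusted p = 0.362). Its probe is dim, at -6.58 to -5.58 in WT and -7.60 to -6.78 in the mutant. In both groups its mean was below that of the second Pknox2 probe, which is in the dimmest bin, where WT array 1 read high. With mutant array 1, 2 or 4 left out, 1 of the 15 was called, and with normexp correction 4 were.

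The study named 6 genes beside regulatory elements with MEIS2 motifs, and as these were picked partly for their expression, their direction here is no independent evidence. On the arrays 4 of 6 were called higher and 0 lower, with a median of 0.89. Isl1, a LIM homeodomain factor of striatal neurons, read 0.83, 0.97, 1.03 and 0.76 in WT and 2.20, 2.17, 2.01 and 2.28 in the mutant, a log2 fold change of 1.26 ± 0.094 (SE, limma adjusted p = 0.000163). Zfp503, a zinc finger factor of the striatum, gave 1.39 ± 0.12 and Ebf1, a helix-loop-helix factor of striatal neurons, 1.37 ± 0.19. Tle4, a Groucho-type corepressor, gave 0.52 ± 0.088. The ephrin ligands Efnb1 (0.32 ± 0.11, limma adjusted p = 0.385) and Efnb2 (0.32 ± 0.11, limma adjusted p = 0.398) did not pass. Isl1, Zfp503 and Ebf1 are also among the LGE markers, whose summed linear signal ran from 8.87 to 11.2 on WT arrays and from 19.1 to 24.2 on mutant arrays, in units of each array's 75th percentile. The part of LGE-type cells in the change of Meis2 was not tested.

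**Figure D4:**
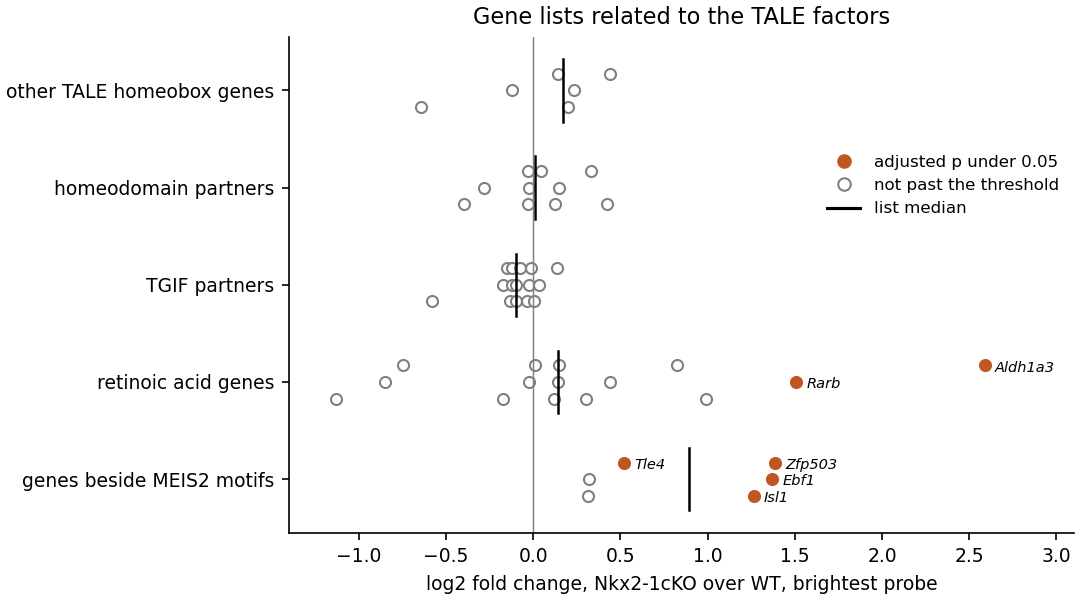
Log2 fold change (Nkx2-1cKO over WT, horizontal axis) of every tested gene of 5 lists tied to the TALE factors, by its brightest probe, filled where the adjusted p was below 0.05, with a black bar at each list's median. Called genes are found in the retinoic acid list (2 of 15) and among the genes beside MEIS2 motifs (4 of 6), and none in the other lists.

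Meis2 was higher in the mutant under every setting tried, with log2 fold changes from 0.77 to 1.10 for the brighter probe and from 0.58 to 0.79 for the second, but the call depended on the setting. The brighter probe passed under 4 of 9 alternative settings and in 1 of 8 fits that each left out an array, that without WT array 1. The second probe passed under 7 of 9 and in 8 of 8. It lost the call with normexp correction (limma adjusted p = 0.0758), where the brighter probe kept it (0.0270), and with the replicate number as a block, where both lost it. No other TALE probe was called under any of these settings.

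**Figure D5:**
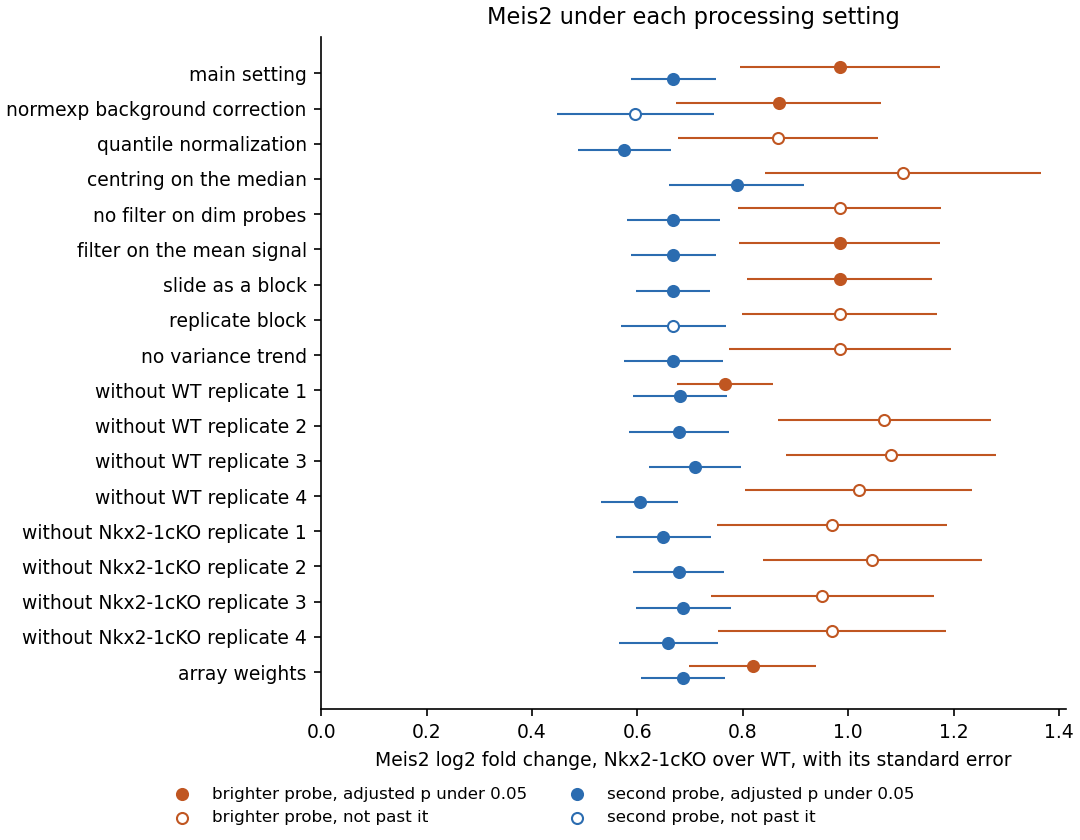
Meis2 log2 fold change (Nkx2-1cKO over WT, horizontal axis) with its standard error for the brighter probe in orange and the second in blue, under the main setting, 9 alternative settings and the 8 fits without 1 array, with filled points where the adjusted p was below 0.05. Every point lies right of 0.5, and the second probe is filled in more settings than the brighter.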

How the data were processed

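Total RNA from microdissected MGE was amplified, labelled with Cy3 and hybridised by the authors to 1-colour Agilent mouse arrays. The deposited scanner files hold spot intensity, of which the background-subtracted processed signal of Agilent Feature Extraction was used (version 10.7.3.1 in the file headers, 10.1 in the submitters' processing notes). No depth applies to arrays, and the number of arrays (4 per group) limits the precision. Control spots and spots marked as outliers were left out, no spot was saturated, and log2 signals were scaled to each array's 75th percentile. Between 29278 and 32745 of 41174 probes per array were well above background. Spots of a probe were averaged, different probes of a gene were kept apart, and the brightest probe stood for a gene in counts of genes. Accessions were named through RefSeq (GRCm38.p6), which gave 24844 probes a single symbol. Groups came from the labels. Nkx2-1cKO was compared with WT in limma 3.58.1 (R 4.3.3) with a variance trend, without block, after a filter for signal above background on 4 of 8 arrays, and the fit was tested on simulated data. Alternatives were normexp (offset 50, on the median spot signal), quantile normalization, median centring, no filter, a mean-signal filter, the slide or the replicate number as a block, no trend, averaging all probes per gene and each array left out. Array weights and second probes were added after seeing the data. The text names all members, called genes and the extremes of each list, and the 5 genes most and least correlated with Meis2. Some items are not reported here and stand in no list count. The members and lists were chosen with earlier results of these data known. Proteins and genome sequence were not used here.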

Additional observations from a re-analysis of the deposited data

Results flagged for a closer look

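Samples that lay apart from the other 3 of their group were looked for in every member and list gene, with Dixon's test at its 95% critical value. Of 127 groups examined 6 had such a sample, where chance alone gives about 6.35 at 1 in 20. None belonged to the 9 TALE genes, and the low WT array 1 on the brighter Meis2 probe, with a gap of 0.80 of the WT range, did not reach the critical value. In the WT group Pax6 was high on array 4, at -0.16 against -0.50 to -0.46 on the others. In the Nkx2-1cKO group Dlx6 was low on array 2, at -1.50 against -1.09 to -1.03. Sin3a was low on mutant array 3, at -1.89 against 0.39 to 0.77. On mutant array 4 Rara was high, at -2.69 against -5.00 to -4.85, and Aldh1a1 was high, at -3.54 against -4.23 to -4.12. Rarg was low on mutant array 1, at -4.43 against -4.17 to -4.12.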

How the results depend on the processing

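The count of TALE probes higher in the Nkx2-1cKO, 2 of 13, was 1 with normexp, quantile normalization, median centring, no filter or no variance trend, and 1 to 2 when an array was left out, and 0 were lower throughout. Normexp moved the median of all tested probes from -0.040 to 0.20. Meis2 (brighter probe, main 0.98, adjusted p = 0.0462) lost its call with quantile normalization (0.87, adjusted p = 0.0903), centring (1.10, 0.140), no filter (0.98, 0.0612) and no trend (0.98, 0.112), and ranged from 0.77 to 1.08 with an array left out (adjusted p from 0.00657 to 0.160). By the brighter or only probe, uncalled members changed sign as follows. Meis3 did without WT array 1 (-0.0071 to 0.31 over arrays left out) and Tgif1 with normexp (0.21). Pknox1 did with centring (0.072) and with an array left out (-0.12 to 0.034). Tgif2 did with centring (0.073), array weights (0.069) and an array left out (-0.16 to 0.11). The second Pknox2 probe turned to 0.62 with normexp. The second Meis1 probe was below 0 in the main setting (-0.033), unlike the brighter. It turned positive with normexp (0.37), quantile normalization (0.035), array weights (0.10), some arrays left out (up to 0.081) and centring (0.087). Centring adds 0.12 to the log2 fold change of every probe measured on all arrays, by its construction, which turns the sign of values this close to 0, and the cause of the other sign changes was not tested. With the mean of a gene's probes Meis2 gave 0.83 (adjusted p = 0.00674) and Pknox2 -0.44 in place of -0.14. Tgif1 and the second Pknox2 probe did not pass the filter on mean signal.

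Over all tested probes, 132 were higher and 192 lower. The higher count was 63 with normexp, 209 with the slide as a block and 64 to 120 with an array left out. The lower count was 92 with normexp, 115 with centring, 289 with array weights and 131 to 174 with an array left out. Among the homeodomain partners 1 gene was lower with quantile normalization, the slide as a block or array weights, and 0 to 1 with an array left out. Retinoic acid genes higher numbered 4 with normexp and 1 to 3 with an array left out, and genes beside MEIS2 motifs 3 to 4.

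Replicate numbers are shared between the groups, and whether they pair the samples could not be told. Deviations of same-numbered arrays correlated between -0.48 and -0.19, but same-numbered arrays always lay on different slides. Differently numbered arrays on different slides correlated between -0.45 and -0.23, within the range of the same-numbered ones. Among arrays on different slides, same-numbered ones were thus not seen to be more alike, and pairing was not tested. With the replicate block 0 TALE probes were higher, Meis2 kept 0.98 with adjusted p = 0.180, probes higher and lower over all were 8 and 65, genes beside MEIS2 motifs 2 and retinoic acid genes 0. Signal over background limits the dim probes of Tgif1 and Pknox2, and 4 arrays a group limit what can be told of differences as small as those of Pbx2 and Pbx3.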

Other observations

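The genes most like the second Meis2 probe over the 8 arrays were looked up after those of the brighter probe were known. The highest correlations were those of Hs6st2 (r = 0.989), a heparan sulfate sulfotransferase, Isl1 (0.986), Zfp503 (0.985), Syt13 (0.980) and Sbds (0.974). All but Sbds were called higher in the mutant. Among the lowest were those of Zswim5 (r = -0.986), Galnt18 (-0.980), Ndst4 (-0.975) and Elfn1 (-0.974), all called lower. Elfn1 gave a log2 fold change of -1.90 ± 0.093 (SE, limma adjusted p = 9.73e-06). For both probes Pbx3 was the TALE gene closest to Meis2, at r = 0.85 and 0.82, and Tgif1 the furthest, at -0.86 and -0.81. These correlations share the group difference of the 8 arrays and have no test.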
